A study of Mus musculus with 16 samples.

Results

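Gli2 binding and 2 histone marks were related to each other in mouse medulloblastomas that lacked both Sufu and Spop (the Sufu;Spop double knockout, DKO), taken at postnatal day 13. The members were 1397 Gli2 peaks, 28987 H3K27ac regions and 65150 H3K36me3 regions on the 19 autosomes, chosen as the 3 DKO peak lists of chromatin immunoprecipitation and sequencing (ChIP-seq). They made up 95534 of the 209255 regions in the 6 lists of the series, whose other 3 lists came from tumours of the same age with SmoM2 overexpression, SmoM2 being an active form of the Hedgehog signal transducer Smoothened. Each DKO list stood for 2 libraries of 1 antibody, out of 16 libraries in the series. The 3 DKO groups differed only in the antibody, and the sources used here give neither the Cre driver nor the animal behind each library.

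Sufu binds Gli proteins and keeps them out of the nucleus. Spop hands them to a Cul3-based ubiquitin ligase for degradation, so both proteins restrain the Hedgehog pathway. Gli2 is the main transcriptional activator of that pathway, which drives the growth of granule neuron progenitors and, when unrestrained, of the Hedgehog group of medulloblastomas. H3K27ac is an acetylated histone found at active promoters and enhancers, on the nucleosomes that flank bound transcription factors. H3K36me3 is deposited behind elongating RNA polymerase II and lies over the bodies of transcribed genes.

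No list separates its 2 libraries, so nothing below has a replicate check, the read depth is unknown, and peaks of a list are not replicates of a condition. Intervals are 95% intervals over peaks, regions or bases and cover counting error only, and neighbouring regions are not independent. A region absent from a list was not called, which does not show that the mark is absent. Genes and tissue markers at these positions (mouse build mm9) are not analysed here. H3K27ac regions covered 24.9 Mb (1.01% of the autosomes) with a median width of 485 bp, and H3K36me3 regions covered 163 Mb (6.58%) with a median width of 938 bp. Gli2 peaks had a median width of 165 bp.

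Gli2 peaks were found mostly with H3K27ac or with neither mark, and rarely with H3K36me3. By overlap of at least 1 base, 727 peaks (52.0%, 49.4–54.7%) lay on H3K27ac only, 637 (45.6%, 43.0–48.2%) on neither mark, 26 (1.86%, 1.27–2.71%) on both marks and 7 (0.501%, 0.243–1.03%) on H3K36me3 only. With H3K27ac covering 1.01% of the autosomes, 53.9% of Gli2 peaks (51.3–56.5%) touched it. With H3K36me3 covering 6.58%, 2.36% of peaks (1.69–3.30%) touched it. The share on H3K36me3 was 19.1% once regions of that mark at most 10 kb apart were joined. It is thus a statement about the called regions and not about whole marked domains. Joined regions cover more than 6.58% of the autosomes. That larger share was not measured, so 19.1% cannot be set against 6.58%.

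Many Gli2 peaks counted as lacking H3K27ac lay immediately beside it. The summit, the position of highest signal in a peak, was inside an H3K27ac region for 698 peaks and outside for 699. Among the 699 were 55 peaks that touched H3K27ac away from the summit and 644 that did not touch it. Of these 644, 289 (44.9%) had the summit within 1 kb of a region. Of all 699 outside, 49.2% were within 1 kb of a region, 40 lay between 1 and 5 kb from one, and 315 lay farther away. The distances therefore fell into 2 groups, one under 1 kb and a broad one above 5 kb. The median of 1.26 kb (0.456–3.82 kb) for summits outside H3K27ac lies between the groups and describes neither. It was 9.20 kb with H3K27ac regions of −log10 q of at least 2, 0.409 kb with Gli2 peaks of −log10 q of at least 10 and 3.74 kb from the edge of the Gli2 peak in place of its summit.

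**Figure D1:**
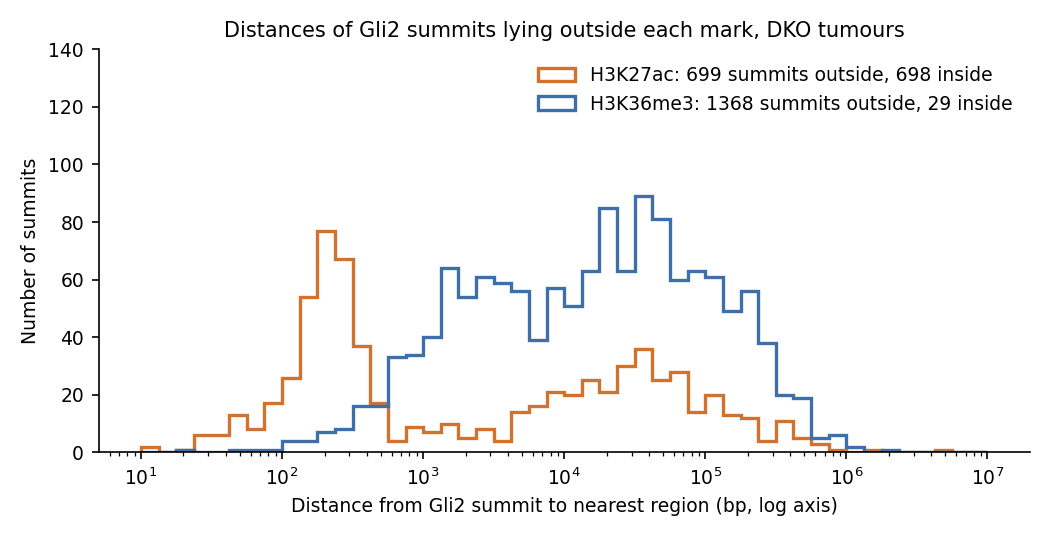
Number of Gli2 summits of DKO tumours (vertical axis) by distance to the nearest H3K27ac (orange) or H3K36me3 (blue) region, in bp on a log axis, for summits outside the mark. H3K27ac distances have a narrow group under 1 kb and a broad one above 5 kb, whereas most H3K36me3 distances are above 1 kb (median 18.8 kb).

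Summits were sorted by this distance into 4 positions: inside a region, in a gap with H3K27ac within 1 kb on both sides, at an edge with H3K27ac within 1 kb on 1 side, and far, with none within 1 kb. The counts were 698 inside (50.0%, 47.3–52.6%), 157 in a gap (11.2%, 9.69–13.002%), 187 at an edge (13.4%, 11.7–15.3%) and 355 far (25.4%, 23.2–27.8%). Together, 1042 of 1397 summits (74.6%, 72.2–76.8%) were inside or within 1 kb of H3K27ac. The shares of autosomal bases within 1 kb of H3K27ac, in such gaps or at such edges were not measured. The 1.01% covered by the mark counts bases inside regions only, so 74.6% cannot be set against it. Among the 637 peaks touching neither mark, 127 summits were in such a gap and 160 at an edge, which leaves 350 far from H3K27ac. Peaks beside the mark had values that overlapped those of peaks on it. The median fold enrichment, the authors' ratio over background at each peak, was 10.0 (9.36–10.6) for the 289 peaks off H3K27ac with the summit within 1 kb, 10.4 (10.0–10.8) for the 753 on H3K27ac and 8.24 (7.83–8.70) for the 355 far peaks.

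Gaps in this class are short by definition, as H3K27ac must lie within 1 kb of the summit on both sides. Their median length was 533 bp (interquartile range 456–658 bp), with the summit a median of 185 bp from the nearer region. The summit was in the middle 50% of the gap in 109 of 157 cases (69.4%). The H3K27ac list held no gap under 413 bp, so summits in any shorter break of the mark count as inside. Inside H3K27ac, summits lay a median of 924 bp from the nearer border of regions with a median width of 2777 bp, and 529 of 698 (75.8%) were in the middle 50% of the region.

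Averaged over all summits, H3K27ac was called somewhat more often beside the Gli2 summit than on it. A called region covered 50.0% of summits, 57.1% of positions 400 bp away on either side, 37.4% at 1 kb, 21.5% at 2 kb and 9.91% at 10 kb. At 50 kb the share was 5.01%, still above the 1.01% of all autosomal bases. For the 753 peaks on H3K27ac the share was 92.7% at the summit and 85.6% at 400 bp. For the other peaks it was 0% at the summit and 23.8% at 400 bp. These 2 sets were chosen by whether the peak touched the mark. The split itself therefore largely fixes their shares at the summit, and no conclusion is drawn from that contrast. Over all summits, H3K36me3 ran the other way from H3K27ac. It rose from 2.08% at the summit through 6.73% at 1 kb to 13.8% at 5 kb. At 50 kb it was 13.3%, against 6.58% of all autosomal bases. Gli2 summits thus lay in parts of the autosomes richer than average in H3K36me3 regions, at positions within them that were poorer than average in it. Around peaks on H3K27ac the H3K36me3 share was 18.99% at 5 kb, and around other peaks 7.76%.

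**Figure D2:**
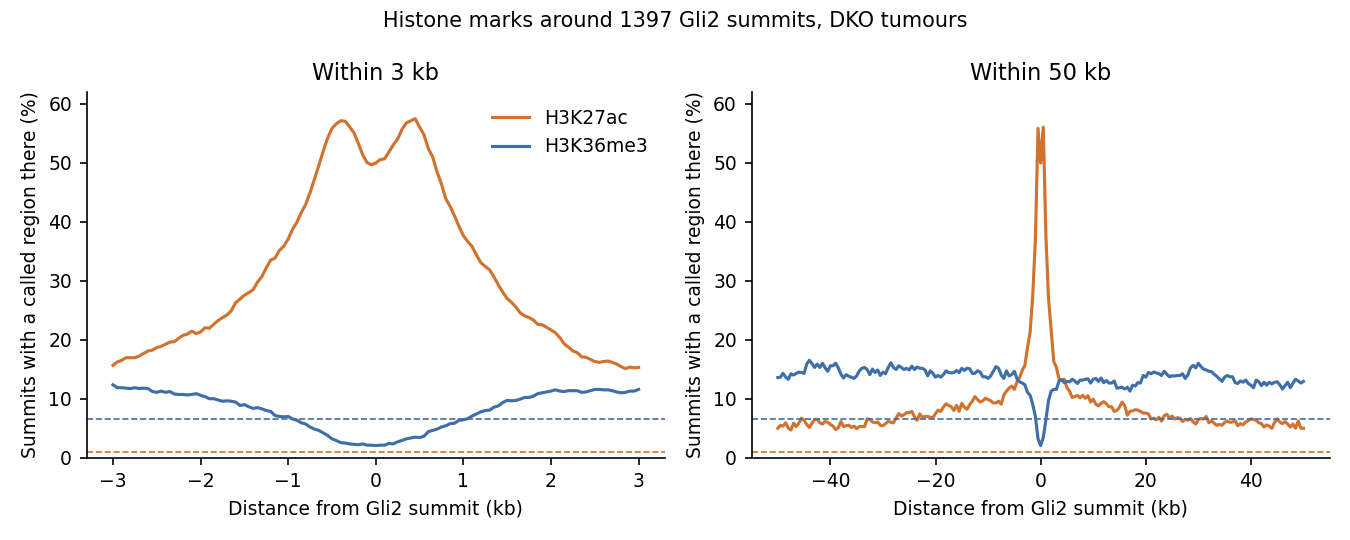
Share of 1397 Gli2 summits (%) with a called H3K27ac (orange) or H3K36me3 (blue) region at each distance from the summit (kb), within 3 kb on the left and 50 kb on the right. Dashed lines are the shares of all autosomal bases (1.01% and 6.58%). H3K27ac is highest 400 bp from the summit (57.1%) and H3K36me3 is lowest at the summit (2.08%).

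Per base, the shortest gaps between H3K27ac regions held more Gli2 summits than regions of any width class. There were 90.7 summits per Mb (70.0–116, exact Poisson interval) in gaps of up to 500 bp and 42.8 (34.1–53.1) in gaps of 500 to 1000 bp, compared with 28.0 (26.0–30.2) in H3K27ac regions as a whole. Wide regions had 45.7 per Mb (40.5–51.3) at 2 to 5 kb and 52.8 (45.2–61.5) over 5 kb, below gaps of up to 500 bp and with intervals that overlapped that of gaps of 500 to 1000 bp. Regions of up to 500 bp had 7.63 (5.07–11.02). Gaps of 1 to 2 kb had 7.21 (4.20–11.5) and gaps over 50 kb had 0.176 (0.159–0.195), below the autosomal 0.565 (0.536–0.595). All gaps of at most 1 kb had 55.7 per Mb (47.1–65.5), and with H3K27ac regions of −log10 q of at least 2 the values were 78.0 for gaps and 30.6 for regions.

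**Figure D3:**
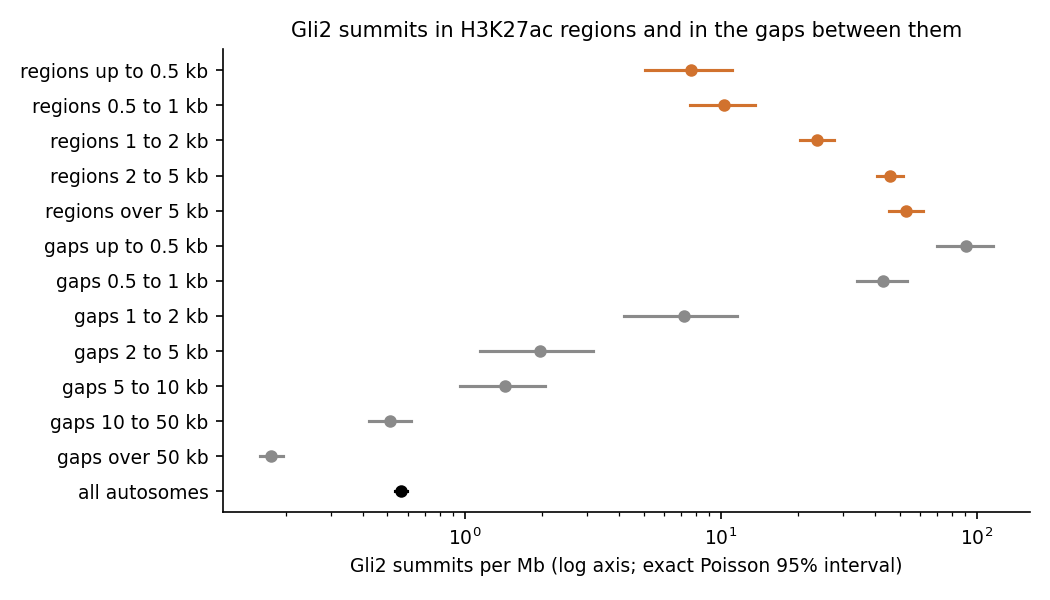
Gli2 summits per Mb (log axis) in H3K27ac regions by width (orange), in gaps between neighbouring H3K27ac regions by length (grey) and over all autosomes (black), with exact Poisson 95% intervals. The highest density, 90.7 per Mb, is in gaps of up to 0.5 kb and the lowest, 0.176 per Mb, in gaps over 50 kb.

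Most short gaps nonetheless held no Gli2 peak. Of 4456 gaps of at most 1 kb, 147 held a summit and 4309 did not. The regions beside gaps with a summit had a median width of 587 bp (530–672 bp) and a median −log10 q of 3.14 (2.93–3.51), compared with 465 bp (451–479 bp) and 2.58 (2.55–2.62) beside gaps without, so they were wider and more strongly called.

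The highest-ranking Gli2 peaks were the closest to H3K27ac. When peaks were divided by −log10 q, the caller's significance, into 10 parts, 125 of 140 summits in the highest part (89.3%, 83.1–93.4%) were inside or within 1 kb of H3K27ac, compared with 79 of 140 (56.4%, 48.2–64.4%) in the lowest, a difference of 32.9 percentage points (22.8–42.1). The share in a gap was 16.4% (11.2–23.4%) in the highest and 2.86% (1.12–7.12%) in the lowest part. In the parts between it ranged from 6.43% to 17.3% without a steady fall. The share far from H3K27ac was 10.7% in the highest and 43.6% in the lowest part. Overlap with H3K27ac alone showed a flatter course, from 73.6% in the highest part to 46.4% in the lowest, with 44.6–55.4% in parts 3 to 9. Peaks of high rank were also wider (median 275 bp in the highest and 133 bp in the lowest part), and the part of peak width in these shares was not tested.

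**Figure D4:**
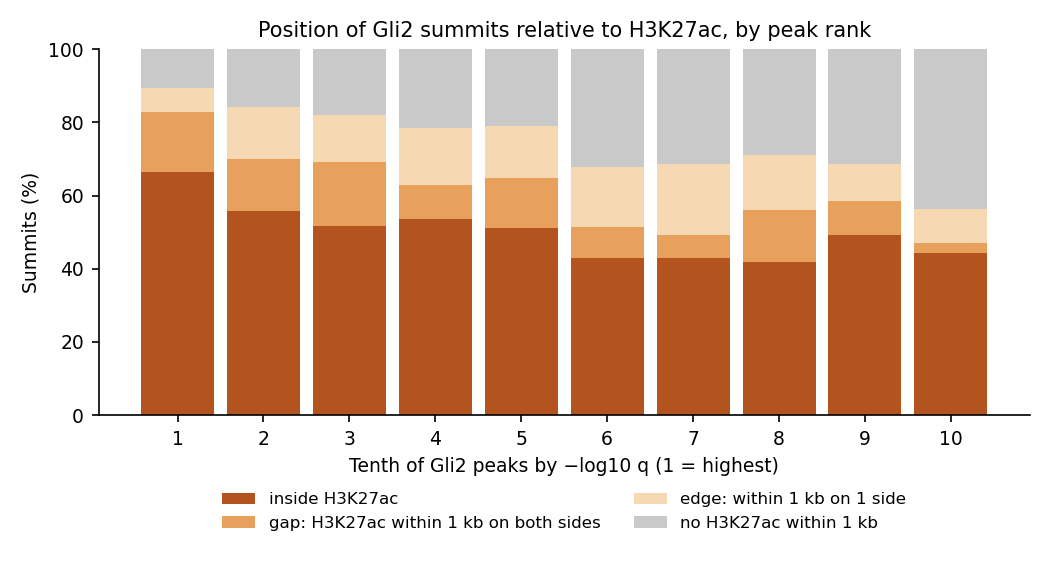
Position of Gli2 summits relative to H3K27ac (% of summits, stacked) in each of 10 equal parts of the DKO Gli2 list by −log10 q, the highest on the left. The share with no H3K27ac within 1 kb (grey) is 10.7% in the highest part and 43.6% in the lowest.

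Of the 10 peaks ranked highest by −log10 q, 8 had the summit inside H3K27ac, 1 in a gap and 1 at an edge. The highest, on chromosome 1 at 157059613–157059967 with a fold enrichment of 87.4, lay inside an H3K27ac region of 14.4 kb (157051062–157065440) that held 2 summits, 1214 bp from the nearest H3K36me3 region. The next, on chromosome 7 at 133152214–133152733 (fold enrichment 57.4), had its summit in a gap of 416 bp, with H3K27ac 299 bp away on 1 side and 118 bp on the other and H3K36me3 at 706 bp. The peak on chromosome 9 at 72951182–72951858 (52.6) sat in a small H3K27ac region of 1.71 kb, with H3K36me3 at 11.3 kb. The peak on chromosome 15 at 64410578–64410937 (45.5) touched no mark, yet H3K27ac began 288 bp from its summit on 1 side, while the other side had none for 728397 bp and H3K36me3 was 237 kb away. High-ranking summits thus lay inside a wide acetylated region, inside a small one, between regions and beside one.

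Peaks touching neither mark included some of high rank. Of the 5 highest, 2 were in gaps: chromosome 2 at 33960699–33960908 (fold enrichment 36.1), with H3K27ac at 253 and 379 bp, and chromosome 11 at 75683306–75683678 (30.4), with H3K27ac at 217 and 322 bp. Another 2 were far from H3K27ac, on chromosome 17 at 31563352–31563600 (35.9), 6251 bp from H3K27ac and 1822 bp from H3K36me3, and on chromosome 5 at 141018811–141019032 (30.4), 58.4 kb and 14.6 kb away. High fold enrichment was therefore also seen without called acetylation nearby. The 5 summits farthest from H3K27ac were all at least 611 kb from it and at least 305 kb from H3K36me3, with fold enrichments of 3.81 to 12.1. The farthest, on chromosome 14 at 3015467–3015594 (7.83), was 4573744 bp from the nearest H3K27ac region. That distance runs toward the chromosome end, as the list held no H3K27ac region between this summit and the start of the chromosome. Whether a region could have been called in that stretch was not tested.

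The 33 peaks on H3K36me3 were mostly also acetylated. Of these, 26 overlapped H3K27ac as well, compared with 753 of all 1397, and all 26 had the summit inside H3K27ac. By rank, 7 of the 33 were in the highest and 11 in the lowest of the 10 parts, with 0 to 4 in each of the others. The highest was on chromosome 11 at 60016709–60017113 (fold enrichment 44.8), inside an H3K27ac region of 28.3 kb (59996401–60024702) and an H3K36me3 region of 10.2 kb (60012120–60022315). The peak on chromosome 8 at 106788295–106788506 (28.3) lay where an H3K27ac region of 1.56 kb and an H3K36me3 region of 2.40 kb met. The 7 peaks on H3K36me3 alone were weak, with a median fold enrichment of 5.65 (4.54–11.3), the highest being chromosome 9 at 119835029–119835184 (11.3), whose summit was 619 bp from H3K27ac. The 29 summits inside H3K36me3 lay near borders of the regions, a median of 386 bp from the nearer one in regions with a median width of 6056 bp, and 16 of the 29 were within 500 bp of it.

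Outside H3K36me3, summits were a median of 18.8 kb (15.7–21.3 kb) from the nearest region of that mark, and 41.9% (39.3–44.5%) of all summits were inside or within 10 kb. The share of all autosomal bases inside or within 10 kb of H3K36me3 was not measured. Neither value therefore shows whether summits are nearer to the mark than other positions. Acetylated peaks were nearer, with a median over all summits of 7.75 kb (5.62–9.69 kb) compared with 37.0 kb (32.8–43.6 kb) for the others. H3K36me3 was within 10 kb of 54.1% of peaks on H3K27ac and 27.6% of the others, a difference of 26.4 points (21.4–31.3). By position, the median distance was 7.57 kb (5.31–9.10 kb) inside H3K27ac, 17.0 kb (9.72–31.0 kb) in gaps, 27.7 kb (16.7–39.7 kb) at edges and 48.2 kb (37.4–66.2 kb) far from it. The intervals of gaps and edges overlapped, as did those of edges and far summits. In gaps no summit lay inside H3K36me3 (0 of 157), compared with 29 of all 1397 summits (2.08%), and nothing is concluded from so small a contrast.

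H3K36me3 lay on both sides of a summit about as often as on 1 side. Leaving aside summits inside the mark, 20.0% (18.03–22.2%) of summits had it within 10 kb on both sides, 19.8% (17.8–21.9%) on 1 side and 58.1% (55.5–60.7%) on neither. For peaks on H3K27ac the shares were 27.1%, 24.0% and 45.9%, and for the others 11.8%, 14.8% and 72.4%. The same shares over all autosomal positions were not measured.

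Few acetylated regions held Gli2, and these were wide. Of 28987 H3K27ac regions, 618 (2.13%, 1.97–2.30%) held at least 1 summit: 560 held 1, 45 held 2, 10 held 3 and 3 held 6. Regions with a summit had a median width of 2567 bp (2386–2723 bp) and a median −log10 q of 6.57 (6.02–6.90), compared with 473 bp (465–480 bp) and 2.58 (2.56–2.60) for the rest. The share holding a summit was 13.6% (12.4–14.9%) among the widest 10% of regions and 0.069% (0.019–0.251%) among the narrowest 10%. The number per Mb was 46.5 (42.4–50.9) in the widest and 5.99 (0.726–21.6) in the narrowest part, the latter from 2 summits. Median −log10 q was 7.06 and 1.87 in these parts, and the part of width or strength of call was not tested.

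The 3 regions with 6 summits each differed in their H3K36me3. The region on chromosome 8 at 122811999–122844541 (32.5 kb) had summits of fold enrichment 7.12 to 32.5 and no H3K36me3. The region on chromosome 11 at 120112000–120134517 (22.5 kb) had summits of 7.16 to 39.6, and H3K36me3 overlapped 30.8% of it. The region on chromosome 13 at 63657124–63671030 (13.9 kb) had summits of 4.01 to 24.4, with H3K36me3 over 44.4%. None of these 18 summits was inside H3K36me3. Over all Gli2 summits the share inside was 2.08%, so this count lies near it. By contrast, the region on chromosome 11 at 59996401–60024702 (28.3 kb) held 3 summits, of which 2 were inside H3K36me3. Width did not guarantee a Gli2 peak: the widest H3K27ac region of the list, on chromosome 13 at 112559537–112601305 (41.8 kb, fold enrichment 13.5), held none, nor did those on chromosome 14 at 122860635–122891257 (30.6 kb) and chromosome 9 at 91255181–91283664 (28.5 kb).

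The marks shared a small part of their bases, but this part was somewhat above each mark's share of all autosomal bases. Of the H3K27ac regions 11.8% (11.4–12.2%) overlapped H3K36me3, and 4.66% (4.51–4.83%) of H3K36me3 regions overlapped H3K27ac. They shared 2.06 Mb, which is 8.28% of acetylated and 1.27% of H3K36me3 bases. Of all autosomal bases, 6.58% were in H3K36me3 and 1.01% in H3K27ac. Within acetylated sequence, Gli2 was thinner where H3K36me3 was also called: 10.7 summits per Mb (6.68–16.1) in the shared bases against 29.6 (27.4–31.9) in the other acetylated bases.

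Whether Gli2-holding acetylated regions carried H3K36me3 depended on their width. Overlap with H3K36me3 was 23.0% (19.8–26.5%) for regions with a summit and 11.6% (11.2–11.9%) for the rest, a difference of 11.4 points (8.25–14.9), but regions with a summit were much wider. In the widest of 4 equal parts by width, which held 532 of the 618 regions with a summit, the difference was still 12.8 points (9.12–16.8). Widths within that part were unlike, with medians of 2902 bp with and 1612 bp without a summit. In finer width classes the difference was small against its interval: 1.67 points (−4.60 to 9.83) at 2 to 3 kb, −1.91 (−9.57 to 6.70) at 3 to 5 kb and 8.65 (−3.77 to 20.9) at 5 to 10 kb. Both kinds of region over 10 kb mostly carried H3K36me3 (28 of 31 with a summit and 40 of 49 without). Among regions of up to 500 bp, 0 of 28 with a summit overlapped H3K36me3, compared with 12.4% (11.9–12.9%) of the rest, a difference of −12.4 points (−12.9 to −0.320), although the intervals of these shares touched.

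**Figure D5:**
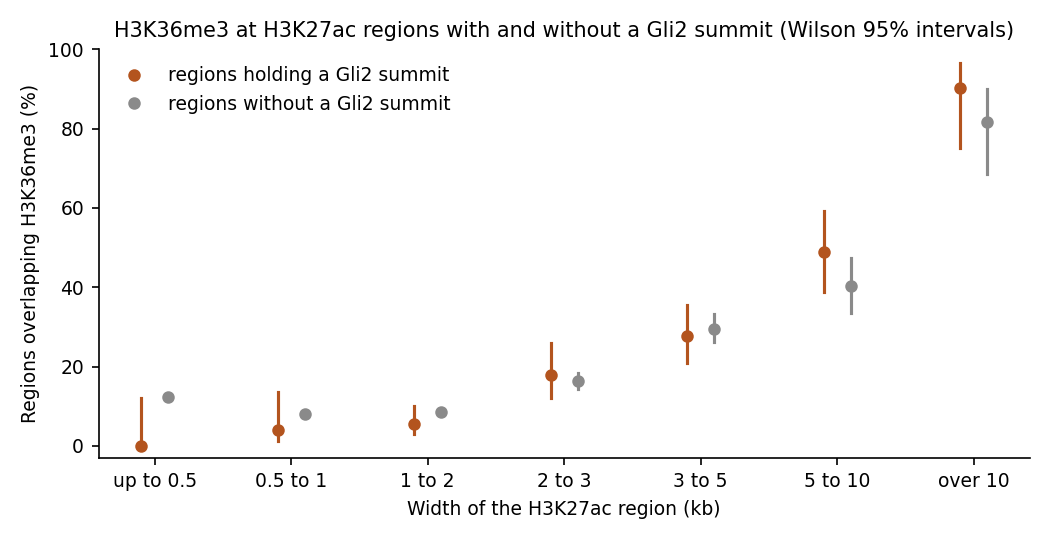
Share of H3K27ac regions overlapping H3K36me3 (%) by width of the H3K27ac region (kb), for regions holding a Gli2 summit (brown) and without one (grey), with Wilson 95% intervals. Both shares are highest in the widest regions (90.3% and 81.6%), and the intervals of the pair overlap in every width class.

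Distance to H3K36me3 differed among the narrower regions. The centres of H3K27ac regions of 1 to 2 kb with a summit lay a median of 19.1 kb (12.5–27.7 kb) from H3K36me3, and those without a summit 4.53 kb (4.27–4.79 kb). At 500 to 1000 bp the medians were 18.1 kb (10.4–35.7 kb) and 5.10 kb (4.73–5.46 kb), and at up to 500 bp 20.6 kb (8.82–35.8 kb) and 7.94 kb (7.46–8.42 kb). In regions of 3 to 5 kb they were 5.14 kb (3.20–8.04 kb) and 3.96 kb (3.43–4.69 kb), with overlapping intervals. Acetylated regions of up to 2 kb holding Gli2 thus lay farther from H3K36me3 than others of their width, and from 2 kb upward the intervals overlapped. The median −log10 q of the regions of 1 to 2 kb was 4.20 with and 4.60 without a summit.

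Summits near one another were more often inside or close to H3K27ac. Where neighbouring summits at most 10 kb apart were joined, 273 summits formed clusters of 2 or more and 1124 stood alone. Of the clustered summits 91.9% (88.1–94.6%) were inside or within 1 kb of H3K27ac, compared with 70.4% (67.6–73.0%) of lone ones, a difference of 21.6 points (16.9–25.4). The shares inside a region were 76.2% (70.8–80.9%) and 43.6% (40.7–46.5%). Their median fold enrichment was 10.4 (9.57–11.3) against 9.54 (9.13–9.83), with overlapping intervals. The 4 clusters of 5 or more summits held 27 in all, of which 26 were inside H3K27ac and 1 in a gap, and none was inside H3K36me3. Over all summits the share inside H3K36me3 was 2.08%, so this count of none lies near it. On chromosome 8 between 122824588 and 122849369, 8 summits lay 13.1 to 24.7 kb from H3K36me3, whereas on chromosome 13 between 63654140 and 63674778, 8 summits lay 0.199 to 7.88 kb from it.

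The same measures were taken in the SmoM2 lists (136 autosomal Gli2 peaks), whose H3K27ac list is shorter (21211 against 28987 regions) and whose H3K36me3 list is longer (87539 against 65150). Of SmoM2 summits 68.4% (60.2–75.6%) were inside or within 1 kb of H3K27ac and 5.88% (3.01–11.2%) were in a gap. The DKO shares of 74.6% and 11.2% were 6.21 points (−1.38 to 14.7) and 5.36 points (−0.162 to 8.73) higher, so neither interval excluded 0. Against the 136 highest DKO peaks, an equal number, the differences were 21.3 points (11.8–30.5) for proximity and 10.3 points (2.84–17.96) for gaps. Of these 136 summits, 89.7% were inside or within 1 kb of H3K27ac and 16.2% in a gap, each above the share of all DKO summits. The rise in both differences thus comes from choosing DKO peaks by rank, as the SmoM2 list was left whole. H3K36me3 was within 10 kb of 47.8% (39.6–56.1%) of SmoM2 and 41.9% of DKO summits, a difference of −5.92 points (−14.6 to 2.70), or −1.47 points (−13.1 to 10.3) with the 136 highest. For summits inside H3K27ac the difference was −2.98 points (−11.6 to 5.78) with all DKO peaks and 14.0 points (2.32–25.1) with the 136 highest. With 1 list per genotype, genotype, list length and depth cannot be told apart, and the values with the 136 highest peaks also carry the choice by rank.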

How the data were processed

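ChIP-seq peak lists of DKO medulloblastomas were used, 1 list for each of Gli2, H3K27ac and H3K36me3, each standing for 2 libraries. Groups follow the genotype and antibody in the labels. The submitters' processing notes name build mm9 and the tools MACS2, BWA, Trimmomatic 0.36 and bedtools. Tool roles, calling settings, use of the input and pooling of replicates are not stated there or in the labels. The protocol in the labels also names an Olig2 antibody on the beads, and lists are named here by the antibody of each sample. The authors deposited a start, an end and, for Gli2, a summit per region, with fold enrichment as a ratio over background, p and q values as −log10 and a score derived from q. These values were used only within a list. How the caller joins neighbouring signal sets region borders and the shortest gaps.

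Distances run from the summit base to the nearest base of a region, and overlap needs 1 base. Shares have Wilson, differences Newcombe, densities exact Poisson and medians order-statistic intervals of 95%. No test over samples was possible. Autosome lengths came from GenomeInfoDb 1.38.1. Calculations used numpy 2.4.6 and scipy 1.17.1 under Python 3.11.15, with pandas 2.3.3 and statsmodels 0.14.6. On simulated data 300 of 300 planted distances were recovered, and all 1397 summit distances to each mark equalled those of bedtools 2.31.1. Named positions are, by rule, the 10 highest Gli2 peaks by −log10 q, the 5 highest in each overlap state, the 5 farthest from H3K27ac, the 5 H3K27ac regions with most summits and the 5 widest without one, of which a few are described. The members, lists and measures were chosen with earlier results of these data known, and the classes by 1 kb, the densities, the clusters and the SmoM2 comparison after the values were seen. The finer width classes of H3K27ac regions were added to a planned division into 4 equal parts. Genes and sequences at these positions are not analysed here, as no genome or annotation of build mm9 was used. Alternatives covered thresholds, overlap definitions, joining of regions and chromosomes X and Y.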

Additional observations from a re-analysis of the deposited data

Results flagged for a closer look

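Gli2 peaks outside the autosomes are given here because the comparisons above do not use them. Chromosome Y held 17 DKO Gli2 peaks, or 1.07 per Mb, with a median fold enrichment of 2.53 (1.73 to 3.72), and 2 of these overlapped H3K27ac. The DKO lists held 3 H3K27ac regions and 1 H3K36me3 region there. Chromosome X held 12 Gli2 peaks, or 0.072 per Mb, with a median fold enrichment of 7.64, of which 1 overlapped H3K27ac and 6 summits were inside or within 1 kb of it. The autosomes had 0.565 peaks per Mb and a median fold enrichment of 9.57. These densities divide by the full length of the chromosomes. How much of each could hold a called peak was not measured, so they may not be comparable. A cause was not tested.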

How the results depend on the processing

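Of 61 values under the first set of alternatives, 37 stayed within the interval of the reported value and 24 moved outside it. Of 30 for measures or alternatives added after seeing the data, 16 stayed, 13 moved and 1 reversed. Except for the alternative's own construction (fewer or longer regions, fewer peaks), the cause was not tested. With Gli2 peaks of −log10 q of at least 10, the share on H3K27ac was 57.0%, on neither mark 42.7% and inside or within 1 kb of H3K27ac 78.7%, the median distance to H3K27ac was 0.409 kb, 1.57% of H3K27ac regions held a summit, and summits per Mb were 20.2 in regions and 42.6 in gaps of at most 1 kb (25.8 in regions with −log10 q of at least 5). With histone regions of −log10 q of at least 2, the median distance was 9.20 kb to H3K27ac and 29.6 kb to H3K36me3, 2.94% of H3K27ac regions held a summit, 7.88% overlapped H3K36me3, 7.66% of summits were in a gap and 68.6% inside or within 1 kb, with 30.6 summits per Mb in regions and 78.0 in gaps. With histone regions of fold enrichment of at least 3, the distance to H3K36me3 was 27.004 kb and 9.54% of H3K27ac regions overlapped H3K36me3. With the summit inside the region, 50.0% of peaks were on H3K27ac and 49.5% on neither mark, and with 50% of the peak or region covered 49.7% and 49.8%, with 7.89% of H3K27ac regions on H3K36me3. Joining regions at most 1 kb apart gave 62.3% on H3K27ac, 3.65% on H3K36me3, 37.1% on neither and 2.99% of H3K27ac regions with a summit. Joining at most 10 kb gave 66.0%, 19.1%, 30.9% and 4.07%, and 23.3% of H3K27ac regions on H3K36me3. Joined regions cover more of the autosomes than the called ones, and the share they cover was not measured. A flank of 500 bp put 8.95% of summits in gaps, and one of 5 kb put 13.4% in gaps and 77.5% inside or within it. With the 136 highest DKO peaks, the difference from SmoM2 tumours turned from −2.98 to 14.0 points for summits inside H3K27ac, and was 10.3 points for gaps and 21.3 for proximity. Only the DKO list was cut by rank for these values. The ratio of median fold enrichment on and off H3K27ac stayed between 1.12 and 1.22. Gaps of at most 1 kb had more summits per Mb than all regions pooled under every alternative run for both. No paired analysis was possible because the lists do not separate replicates, which also prevented leaving one out. Depth is unknown.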

Other observations

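Gli2 peaks were spread unevenly over the autosomes, from 0.280 per Mb on chromosome 14 to 0.886 on chromosome 11, which also had the largest H3K27ac share (1.75% of its length) and the largest H3K36me3 share (10.4%). Per Mb of acetylated sequence, summits ranged from 16.7 on chromosome 14 to 44.9 on chromosome 8, with 39.4 on chromosome 5 and 34.9 on chromosome 13. The share of summits inside or within 1 kb of H3K27ac was highest on chromosome 13 (55 of 61, 90.2%, 80.2–95.4%) and lowest on chromosome 15 (31 of 55, 56.4%, 43.3–68.6%). These are values by chromosome, picked as extremes after they were seen.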
